A study of Homo sapiens with 4 samples.

Results

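The genes described here are the ligands and receptors of the tumour necrosis factor (TNF) superfamily with their adaptors, the caspases, and the BCL2 family with the apoptosome and inhibitor of apoptosis (IAP) genes. They were chosen by gene symbol among probes that the platform annotation gives 1 symbol. The rule found 95 probes (spotted cDNA clones) of 61 genes, out of 26629 probes and 12483 named genes. In the mean log ratio of the 4 arrays 2 of these 61 genes stood apart. CD70, a TNF-family ligand, and BCL2A1, a pro-survival BCL2 protein, were negative on all 4 arrays. Most of the measured caspases (CASP9 aside, at 0.34 without passing), death receptors and BCL2 relatives lay close to 0 in the mean. CASP8, the executioner caspases, FADD, TRADD and BAX had no probe among the 95, so nothing is said of them. The part that changed sign when the dyes were exchanged exceeded 0.2 in size in 12 of the 95, against 7.68% of all probes. Its median size was 0.0747, close to the 0.0743 of all probes, and its calls did not hold without array 2 or without array 4. Both parts are given below, since the sources used here do not tell which of them holds the let-7a-3 effect.

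The RNA was that of untreated cultures of A549, a human line derived from a lung adenocarcinoma. Each of the 4 two-colour arrays compared 1 culture transfected to overexpress let-7a-3 with 1 parental culture, so that what transfection and selection do is in the same ratio as let-7a-3. Nothing in the labels tells if 1 transfected line or several were grown, and the arrays are called replicates. The dyes were exchanged between arrays 1 and 3 and arrays 2 and 4. In the main fit p-values rest on the spread within arrays 1 and 3 and within arrays 2 and 4, moderated by that of the other probes. This spread may be partly technical. Neither the base of the logarithm nor the channel in the numerator is given in the sources used here, so a positive value cannot be assigned to the let-7a-3 or to the parental cultures, no fold is given, and with the sign turned every direction below turns too.

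In the extrinsic pathway of apoptosis, a trimeric TNF-family ligand gathers its receptor on the cell surface. Receptors with a death domain recruit FADD or TRADD and start the initiator caspases, while the other receptors recruit TRAF adaptors and switch on NF-kB and survival genes. In the intrinsic pathway, BH3-only proteins antagonise the pro-survival BCL2 proteins, BAX and BAK1 open the outer mitochondrial membrane, and cytochrome c with APAF1 activates caspase 9. Epithelial tumour cells in culture carry several death receptors, whereas many of the ligands are known chiefly from immune cells.

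The overexpressed gene gives the mature microRNA let-7a, whose seed, bases 2 to 8 from the 5′ end, sets which messages it recognises. Its sequences are shown because they are the perturbation on which every ratio rests. The hairpin lies at chr22:46112749-46112822 on the plus strand of GRCh38.p14 in RefSeq. Capitals mark the mature strands in the hairpin and the seed in each mature strand, and 11 mature human microRNAs of the table carry the seed of let-7a-5p, the let-7a-5p strand included.
let-7a-3 hairpin: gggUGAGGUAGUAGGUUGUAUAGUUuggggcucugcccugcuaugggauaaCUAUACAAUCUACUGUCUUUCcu
hsa-let-7a-5p: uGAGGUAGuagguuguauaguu
hsa-let-7a-3p: cUAUACAAucuacugucuuuc

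The 4 log ratios of a probe were split into a shared component, the mean of all 4 arrays, and an alternating component, which changes sign with the dye orientation and is given with the sign of arrays 1 and 3. Which of them is the let-7a-3 effect depends on whether the ratios were turned to 1 orientation before deposit, which is not stated, so both are given. The component that is not the let-7a-3 effect goes with the dyes and not with the cultures. Which of these the shared values of CD70 and BCL2A1 are is therefore not known. Arrays had medians between -0.0022 and 0.0174 and standard deviations between 0.173 and 0.193, and the ratios hold no level or signal over background. Over the 95 probes, arrays of the same orientation correlated at Pearson r = 0.67 (arrays 1 and 3) and 0.71 (arrays 2 and 4), and arrays of opposite orientation at 0.09 to 0.34. Without CD70 and BCL2A1, r was 0.41 and 0.57 within an orientation and between -0.44 and -0.10 across orientations. The positive correlations across orientations thus rested on those 2 genes. Over all 26629 probes r was 0.43 and 0.56 within an orientation and between -0.16 and 0.06 across orientations, so the members without these genes correlated within an orientation about as the whole array did. Probes on 1 array share its labelling and scan, so these are descriptions.

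**Figure D1:**
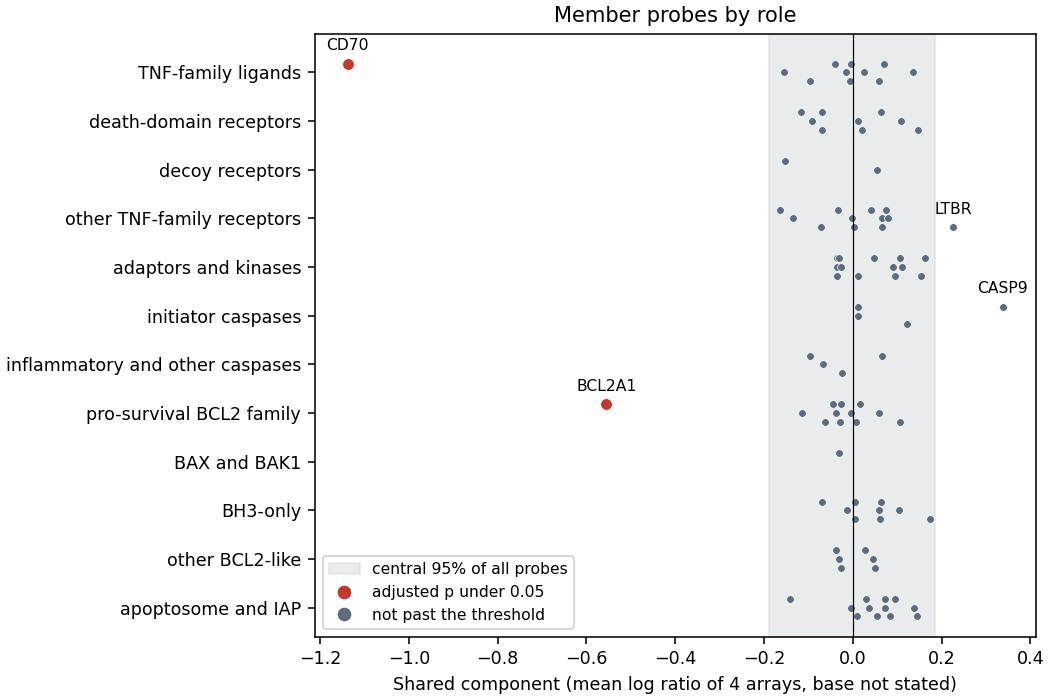
Shared component of each of the 95 member probes (x axis, mean log ratio of 4 arrays, base not stated) in 12 role groups (y axis). Red points passed an adjusted p of 0.05 in limma, and the grey band holds the central 95% of all 26629 probes. CD70 at -1.14 and BCL2A1 at -0.56 lie far to the left of the band, and CASP9 (0.34) and LTBR (0.23) lie to its right without passing.

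In the shared component limma called 2 of the 95 probes at an adjusted p of 0.05, against 2.07% of all probes (550 of 26629), so the members' share was close to that of the array as a whole. Both were negative, against 0.946% of all probes called with a negative value and 1.12% with a positive one. The median of the members was 0.013, against 0.008 over all probes, with 54 positive and 41 negative. Of all probes 54.4% were positive. A sign common to all 4 arrays was found in 16 of the 95, 8 in each direction, against 14.1% of all probes. An unadjusted p under 0.05 was reached by 17, against 12.5% of all probes.

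The ligands were led by CD70, which binds CD27 on lymphocytes and is carried by activated immune cells and by some carcinomas. Its log ratio was -1.64 on array 1, -0.88 on array 2, -1.28 on array 3 and -0.75 on array 4. All 4 values were negative, and the 2 arrays of 1 orientation were further from 0 than the 2 of the other, with means of -1.46 (arrays 1 and 3) and -0.81 (arrays 2 and 4). The shared component was -1.14 ± 0.40 (SD, n = 4; SE of the fit 0.066; limma adjusted p = 2.05e-05), the 18th largest in size of 26629 probes. CD70 had 1 clone on the array, so no other clone could be set beside it. Its receptor CD27 was at 0.07 ± 0.11 (SD, n = 4; limma adjusted p = 0.682).

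The other 10 ligand probes lay between -0.16 and 0.14, and limma called none of them, against 2.07% of all probes. FASLG and 1 TNFSF8 clone, 2 of the 10, had an unadjusted p under 0.05, against 12.5% of all probes. FASLG, the ligand of FAS, was at -0.35, -0.16, -0.04 and -0.08 on arrays 1 to 4, negative on each (adjusted p = 0.322). TNF itself was at 0.07, with LTA (-0.10) and LTB (0.02), which lie beside TNF in the genome in the order LTA, TNF, LTB. The bone-resorption ligand TNFSF11 and the B-cell survival ligand TNFSF13B were each within 0.01 of 0. Of 4 clones of TNFSF8, the ligand of CD30, 1 was positive on all arrays (0.13, 0.07, 0.13 and 0.22) without passing, and the others lay between -0.04 and 0.06.

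Among the death-domain receptors limma called none of 9 probes in the shared component, against 2.07% of all probes. An unadjusted p under 0.05 was reached by 2 of the 9, against 12.5% of all probes. TNFRSF10A, a receptor of the ligand TRAIL, was at -0.01, 0.43, -0.19 and 0.35 on arrays 1 to 4, high on arrays 2 and 4 and at or below 0 on the others (0.15 ± 0.29, SD, n = 4; limma adjusted p = 0.278). It too had 1 clone. The second TRAIL receptor, TNFRSF10B, was low where TNFRSF10A was high, at -0.05, -0.43, 0.33 and -0.23 (shared component -0.09, adjusted p = 0.642). Their neighbour in the genome TNFRSF10D, a decoy receptor that binds TRAIL and lacks a working death domain, was negative on all 4 arrays within a narrow range (-0.11, -0.16, -0.15 and -0.19; adjusted p = 0.208). FAS was at -0.07 (adjusted p = 0.640) and TNFRSF1A, the main TNF receptor, at 0.06 (adjusted p = 0.755). The 4 clones of TNFRSF21 spread from -0.12 to 0.11, and TNFRSF25 was at 0.01. The soluble decoy TNFRSF11B was at 0.06.

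Of the 12 probes of receptors without a death domain, LTBR had the largest value. LTBR, which binds lymphotoxin and drives the alternative NF-kB route, was at 0.29, 0.25, 0.15 and 0.23 on arrays 1 to 4, positive on each with a small spread (0.23 ± 0.06, SD, n = 4). Its limma adjusted p was 0.0651 over all probes and 0.0322 when the same single clone was tested among gene means, so its call depends on the set over which p was adjusted and the variance was shared. The costimulatory receptor TNFRSF18 was negative on all arrays (-0.21, -0.14, -0.13 and -0.17; adjusted p = 0.178), and 1 clone of TNFRSF9 was too (-0.13, adjusted p = 0.426), while the other TNFRSF9 clone was at 0.00. CD40, a receptor of antigen-presenting cells, was at 0.04, TNFRSF8 (CD30) at 0.00, TNFRSF14 at 0.07 and the TNFRSF17 clones at 0.07 and 0.08. None of the 12 passed over all probes in limma, against 2.07% of all probes. An unadjusted p under 0.05 was reached by 2, LTBR and TNFRSF18, against 12.5% of all probes.

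Among 13 probes of adaptors and kinases limma called none in the shared component, against 2.07% of all probes. Against 12.5% of all probes, 2 of the 13 had an unadjusted p under 0.05. These were RIPK4, at 0.04, 0.23, 0.09 and 0.26 on arrays 1 to 4 (0.15 ± 0.11, SD, n = 4; limma adjusted p = 0.208), and RIPK2, a kinase downstream of the NOD receptors, at 0.13, 0.30, -0.14 and 0.37 (adjusted p = 0.269). The necroptosis kinase RIPK3 was at 0.01. TRAF3, a brake on the alternative NF-kB route, was at 0.10, the TRAF4 clones at -0.04, -0.03 and 0.11, and the TRAF6 clones at -0.04 and 0.05. CFLAR, which blocks caspase 8 at the death receptor, had clones at -0.03, 0.09 and 0.11.

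None of 8 caspase probes passed in the shared component in limma, against 2.07% of all probes. Against 12.5% of all probes, 1 of the 8 had an unadjusted p under 0.05. This was CASP9, the initiator caspase of the mitochondrial route, at 0.21, 0.07, 0.69 and 0.38 on arrays 1 to 4. All 4 values were positive and spread widely, lowest on array 2 and highest on array 3 (0.34 ± 0.26, SD, n = 4; limma adjusted p = 0.0849). The adjusted p was 0.0126 without array 1 and 0.408 without array 4. APAF1, which forms the apoptosome that activates caspase 9, was at 0.18, 0.22, -0.06 and 0.25 (adjusted p = 0.316). CASP2 was at 0.01, the CASP10 clones at 0.01 and 0.12, and the inflammatory caspases CASP1, CASP4 and CASP5, which lie in 1 cluster in the genome, at 0.07, -0.10 and -0.02, and -0.07. No probe of the executioner caspases or of CASP8 was among the 95, nor any of FADD, TRADD, BAX, XIAP, BIRC2 or BIRC3.

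BCL2A1 stood apart in the BCL2 family. It encodes a pro-survival protein, also called BFL1, and is a known NF-kB target gene in blood cells. Its log ratio was -0.62, -0.65, -0.46 and -0.49 on arrays 1 to 4, so that the values of the 2 dye orientations overlapped, with means of -0.54 (arrays 1 and 3) and -0.57 (arrays 2 and 4). The shared component was -0.56 ± 0.09 (SD, n = 4; SE of the fit 0.055; limma adjusted p = 0.000700), the 125th largest in size of all probes. The alternating component was 0.02 (adjusted p = 0.871). BCL2A1 also had 1 clone.

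The other 11 pro-survival probes lay between -0.11 and 0.11 and did not pass. MCL1 was at -0.35, 0.05, -0.23 and 0.08 on arrays 1 to 4, negative in 1 orientation and slightly positive in the other (shared component -0.11, adjusted p = 0.395). The 6 clones of BCL2 lay between -0.04 and 0.11, the 3 of BCL2L1 between -0.06 and 0.06, and BCL2L2 was at -0.03. BAK1, which forms the pore in the mitochondrial membrane, was at -0.03 (adjusted p = 0.849). Of 9 BH3-only probes, 7 were positive, against 54.4% of all probes. None of the 9 was called by limma, while 1 (a BIK clone at 0.17, adjusted p = 0.232) had an unadjusted p under 0.05, against 12.5% of all probes. The p53-induced BH3-only genes BBC3 and PMAIP1 were at 0.11 and 0.06, BAD at 0.01, HRK at 0.06, the BID clones at -0.07 and 0.06, and BCL2L11 at -0.01. The 6 probes of the less studied relatives BCL2L12, BCL2L13, BCL2L14 and BCL2L15 lay between -0.04 and 0.05. In the shared component limma called none of them, and 0 had an unadjusted p under 0.05, against 12.5% of all probes.

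Among 12 probes of the apoptosome and the IAP family, which cover 5 genes, 10 were positive, between 0.01 and 0.15. Of all probes 54.4% were positive. None of the 12 was called by limma, against 2.07% of all probes. An unadjusted p under 0.05 was reached by 3 (APAF1 and 2 clones of NAIP), against 12.5% of all probes. DIABLO, the mitochondrial protein that relieves caspases of the IAPs, was at 0.07, the 5 clones of BIRC6 between 0.00 and 0.09, and BIRC7, the IAP known from melanoma, at 0.04. The 4 clones of NAIP were at -0.14, 0.07, 0.08 and 0.14.

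The 300 bases around the start of BCL2A1 and of LTBR are shown because both genes were called as gene means in the shared component, with opposite signs. LTBR was called only while arrays 2 and 4 were both kept. CD70 was called as well, but the promoter sequences used here hold no entry for it. Each runs from 250 bases before to 50 after the start in RefSeq on GRCh38.p14, at chr15:79971147-79971446 on the minus strand for BCL2A1 and at chr12:6383912-6384211 on the plus strand for LTBR. Capitals mark TATAAA in BCL2A1 and GGGCGG, or its reverse complement, in LTBR.
BCL2A1: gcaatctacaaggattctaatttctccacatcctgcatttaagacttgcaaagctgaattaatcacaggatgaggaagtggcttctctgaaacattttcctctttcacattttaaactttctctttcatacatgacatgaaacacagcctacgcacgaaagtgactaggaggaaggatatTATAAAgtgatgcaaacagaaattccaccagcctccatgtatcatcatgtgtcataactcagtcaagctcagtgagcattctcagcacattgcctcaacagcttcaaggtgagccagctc
LTBR: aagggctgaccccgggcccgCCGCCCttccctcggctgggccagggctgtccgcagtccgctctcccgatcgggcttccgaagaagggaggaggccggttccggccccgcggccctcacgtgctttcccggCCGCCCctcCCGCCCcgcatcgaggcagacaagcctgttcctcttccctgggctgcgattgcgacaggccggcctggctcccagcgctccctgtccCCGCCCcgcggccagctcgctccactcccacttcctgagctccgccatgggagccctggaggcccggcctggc

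The BCL2A1 window was 41% G and C and the LTBR window 74.3%, against a median of 58.7% over 35116 promoters of the table. TATAAA, searched on both strands, occurred once in the BCL2A1 window, 70 bases before the start, and is held by 11.5% of all promoters. GGGCGG occurred 4 times in the LTBR window, each time on the opposite strand, and is held by 45% of all promoters. TGANTCA, held by 7.71% of all promoters, and the kappaB consensus, held by 14%, had no match in either window. A match or its absence describes these letters only.

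**Figure D2:**
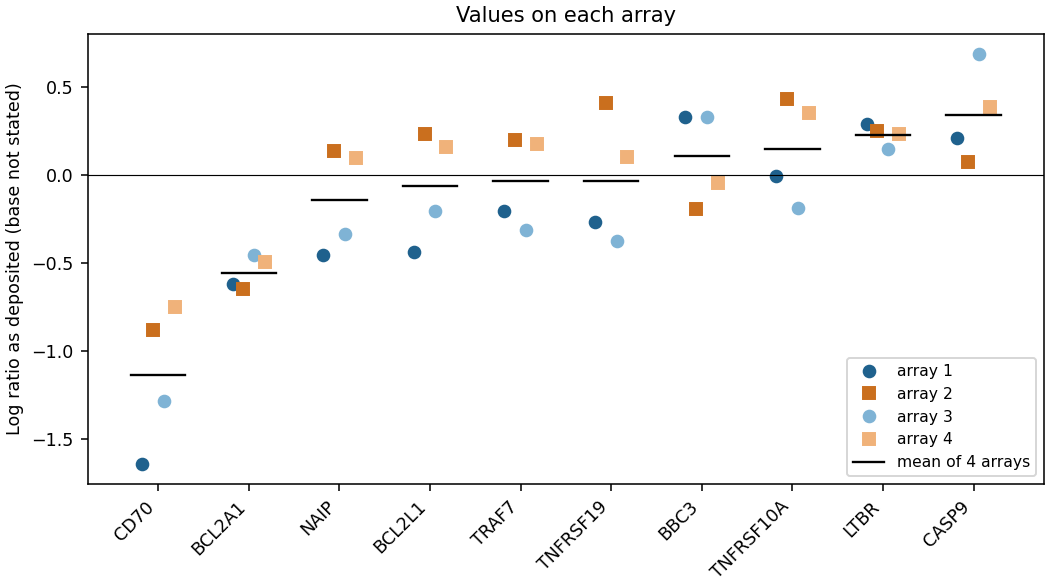
Log ratio as deposited (y axis, base not stated) on each of the 4 arrays for 1 clone of each of the 10 genes named on the x axis. Of NAIP, BCL2L1 and TNFRSF19 only the called clone is shown. Circles are arrays 1 and 3, squares arrays 2 and 4, and the line is the mean. CD70 and BCL2A1 are below 0 on every array and LTBR and CASP9 above it. The clones shown of NAIP, BCL2L1, TRAF7, TNFRSF10A, TNFRSF19 and BBC3 change sign with the dye orientation. The other clones of NAIP, BCL2L1 and TNFRSF19 do not follow it on all 4 arrays.

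In the alternating component, 7 of the 95 probes passed in limma, against 4.28% of all probes (1141 of 26629). They were 1 clone each of CD70, TNFRSF19, BCL2L1, NAIP, TNFRSF10A and TRAF7, all negative, and of BBC3, which was positive. Of all probes 1.48% were called with a negative and 2.81% with a positive value. The sign followed the dye orientation on all 4 arrays in 24 of the 95, against 28.8% of all probes, and 25 had an unadjusted p under 0.05, against 25.2% of all probes. The median of the members was -0.036, against -0.010 over all probes. The size exceeded 0.2 in 12 of the 95, against 7.68% of all probes, and in 4 of the 95 in the shared component, against 4.22%. All 7 adjusted p in limma lay between 0.0322 and 0.0455, close to the threshold, and none of the 7 probes passed without array 2 or without array 4. Each of these fits left 1 array of 1 orientation. The share of all probes called also moved with the array left out, so the loss is not particular to these members.

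CD70 had the largest value of the 7 at -0.32 (SE 0.066; limma adjusted p = 0.0341), which is the gap between its orientations described above. With quantile normalization of the arrays it was -0.64. TNFRSF19, a receptor linked to Wnt-active epithelia, followed, with 1 clone at -0.27, 0.41, -0.38 and 0.10 on arrays 1 to 4 (-0.29, SE 0.061; adjusted p = 0.0385) and the other at 0.00. BCL2L1, the gene of the pro-survival protein BCL-XL, had 1 called clone at -0.44, 0.23, -0.21 and 0.16 (-0.26, SE 0.056; adjusted p = 0.0405), whereas its other clones were at 0.06 and 0.13.

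TNFRSF10A was at -0.24 (SE 0.054; limma adjusted p = 0.0421), with means of -0.10 on arrays 1 and 3 and 0.39 on arrays 2 and 4. TNFRSF10B was at 0.24 (adjusted p = 0.0833), so the TRAIL receptors had opposite signs in this component. The difference between them was not tested. TRAF7, a ubiquitin ligase of the TRAF family, was at -0.21, 0.20, -0.31 and 0.18 on arrays 1 to 4 (-0.22, adjusted p = 0.0435). BBC3, which encodes the p53-induced BH3-only protein PUMA, was at 0.33, -0.19, 0.33 and -0.05 (0.22, SE 0.051; adjusted p = 0.0455).

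NAIP, an inflammasome sensor with IAP repeats, had 1 called clone at -0.46, 0.14, -0.34 and 0.09 (-0.26, adjusted p = 0.0322). Its 3 other clones were at -0.13, -0.04 and 0.12. NAIP lies in a duplicated stretch with closely related copies, so which copies a clone picks up is uncertain. DIABLO did not pass (-0.17, adjusted p = 0.0900). Of caspase probes CASP1 had the largest alternating value, at 0.56, -0.12, 0.06 and -0.23 (0.24, limma adjusted p = 0.0960). Leaving out each array in turn gave values from 0.12 to 0.37.

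**Figure D3:**
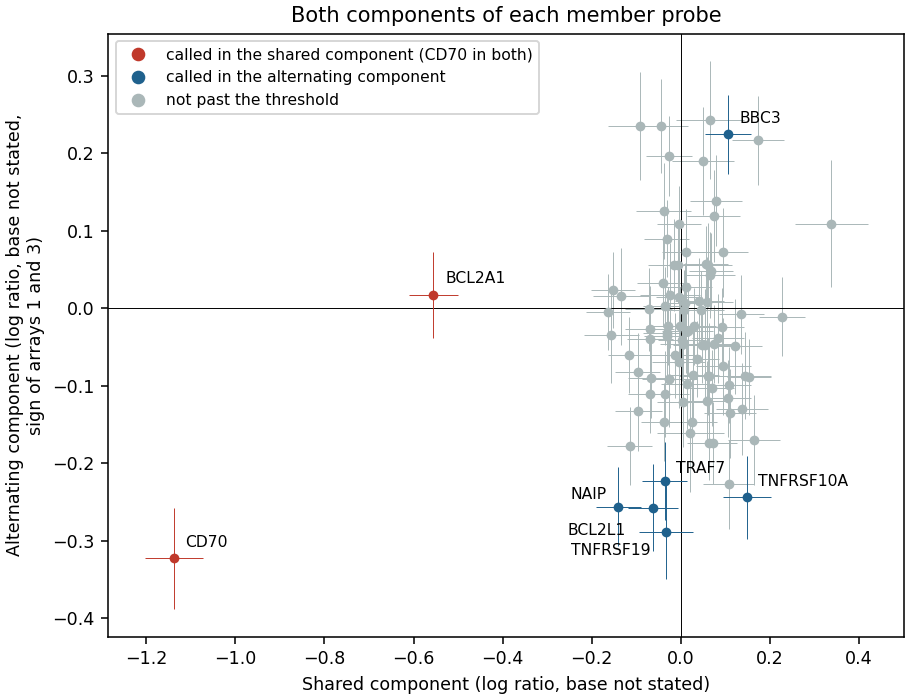
Shared (x axis) and alternating component (y axis) of each of the 95 member probes, as log ratios of unstated base, with bars of 1 standard error of the fit. Red points were called in the shared component and blue points in the alternating one. CD70 (-1.14, -0.32) was called in both, BCL2A1 (-0.56, 0.02) in the shared component, and the 6 blue points lie between -0.14 and 0.15 on the x axis.

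Further clones tell how far a gene's value was repeated by a different spotted sequence. Of the 61 genes 18 had 2 to 6 clones, 52 clones in all. In the shared component the clones of 5 of the 18 genes had 1 sign (BIK, CASP10, CASP4, TNFRSF17 and TNFRSF19), each a gene with 2 clones, of which there were 10. The median distance between the lowest and the highest clone of a gene was 0.13, and it was largest in NAIP (0.28). In the alternating component 7 of the 18 had 1 sign, among them all 4 clones of TNFRSF21 (-0.16 to -0.06), and the median distance was 0.12, with the largest in BCL2L1 (0.38). One clone of BCL2 was at 0.24 (adjusted p = 0.0606) and the other 5 lay between -0.12 and 0.00, and the CFLAR clones were at 0.20 (adjusted p = 0.0623), -0.02 and -0.14. The called clones of BCL2L1, NAIP and TNFRSF19 were each the lowest of their gene, and no other clone of these genes passed. CD70, BCL2A1, LTBR, CASP9, TNFRSF10A, TRAF7 and BBC3 had 1 clone each, so their values had no such check.

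**Figure D4:**
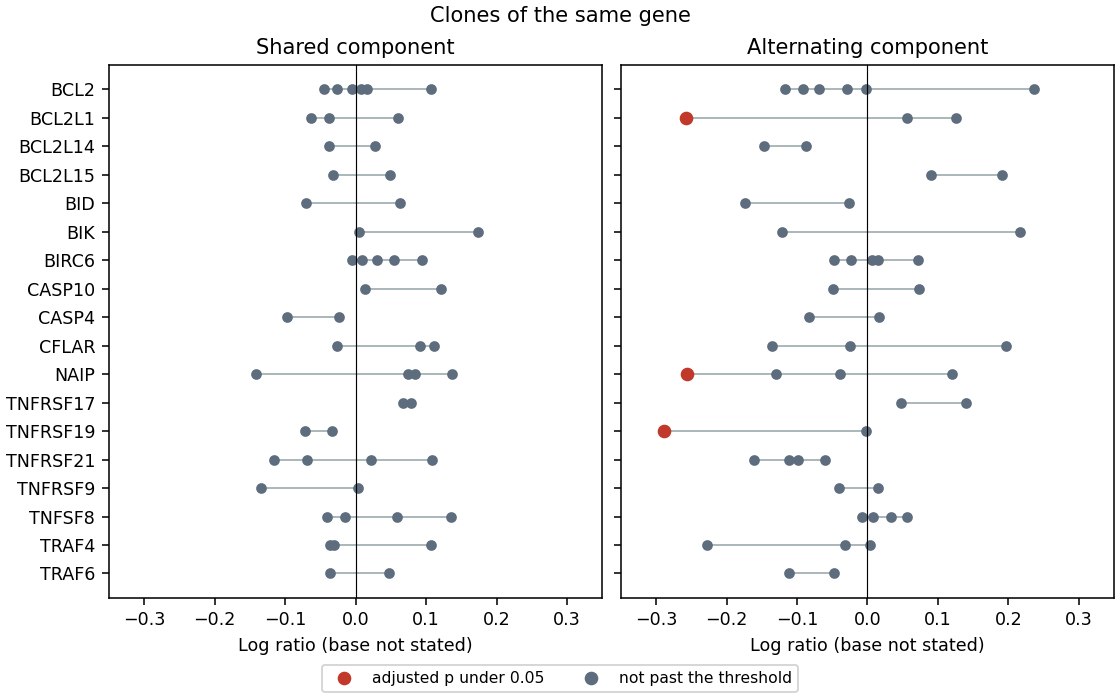
Values of each clone (points) of the 18 member genes with several clones, in the shared (left) and the alternating component (right), as log ratios of unstated base. Lines join the lowest and highest clone of a gene. The clones of 13 of the 18 genes lie on both sides of 0 on the left, and the 3 red points on the right, past an adjusted p of 0.05, have no second red clone.

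With clones averaged per gene, 3 of the 61 genes passed in the shared component in limma, against 3.04% of all genes. CD70 and BCL2A1 were negative, against 1.41% of all genes, and LTBR was positive, against 1.63%. An unadjusted p under 0.05 was reached by 13 of the 61 in the shared component, against 14.6% of all genes, and by 19 in the alternating one, against 25.6%. The number of member genes past the adjusted p was 13 without array 3 (11.8% of all genes), 5 without array 1 (6.39%), and 2 without array 2 (1.43%) or array 4 (1.63%). LTBR was not called without array 2 (adjusted p = 0.192) or without array 4 (adjusted p = 0.160). In the alternating component 4 passed, against 3.29% of all genes, BBC3 with a positive value and CD70, TNFRSF10A and TRAF7 with negative ones. That count was 15 without array 1 (18.4% of all genes) and 7 without array 3 (12.7%). It was 0 in limma without array 2 (0.312%) and without array 4 (0.553%), when 9 and 13 member genes had an unadjusted p under 0.05. The members' counts thus moved with those of the whole array. BCL2L1, NAIP and TNFRSF19 did not pass as gene means.

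Other genes of the same pathways, the NF-kB subunits, their inhibitors and kinases, the ubiquitin ligases of the TNF receptor complex and further apoptosis genes, were measured for 53 of 69 listed. In the shared component 2 passed in limma, both positive, and 51 did not, against 3.04% of all genes. VDAC2, a mitochondrial channel that binds BAK1, was at 0.36, 0.56, 0.18 and 0.70 on arrays 1 to 4 as the mean of its 2 clones (0.45 ± 0.23, SD, n = 4; limma adjusted p = 0.00216). DAPK1, a calcium-dependent death kinase, was at 0.34, 0.11, 0.40 and 0.20 over 5 clones (0.26 ± 0.13, SD, n = 4; limma adjusted p = 0.0149). DAPK1 did not pass without array 2 or without array 4, and VDAC2 passed without each array in turn.

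PEA15, which binds FADD and holds caspase 8 back, was the lowest of the list at -0.34 (adjusted p = 0.0511), negative on all 4 arrays. The NF-kB subunits RELA (0.08), NFKB1 (-0.04) and NFKB2 (0.06) did not pass, nor did the NF-kB inhibitor NFKBIA (0.07). Cytochrome c, CYCS, was at 0.11 and BIRC5, the IAP-family gene of survivin, at -0.07. The list median was 0.003, against 0.007 over all genes. In the alternating component NGFR, a death-domain receptor of neurotrophins, passed with a negative value (-0.33, limma adjusted p = 0.0179) and TNFAIP1 with a positive one (0.29, adjusted p = 0.0376), against 3.29% of all genes, and neither passed without array 2 or without array 4.

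Because CD70, CD27 and BCL2A1 are known from blood cells, markers of blood and other cells were read beside them. Of 11 blood cell markers 6 were measured, with shared components from -0.26 to 0.08 (median 0.004), and NKG7 passed (-0.26, limma adjusted p = 0.0141) while PTPRC, the pan-leukocyte marker, was at 0.03. Of fibroblast markers 5 of 7 and of endothelial markers 4 of 5 were measured. None of them was called by limma in the shared component, and 1 in each list had an unadjusted p under 0.05. In the alternating component the endothelial receptor TEK was called (-0.20, limma adjusted p = 0.0439), against 3.29% of all genes. The other endothelial markers PECAM1 (0.043), KDR (-0.13) and CDH5 (-0.079) were not called in it. Of 6 epithelial markers 4 were measured, with shared components from -0.048 to 0.39 (median 0.045). KRT8 passed (0.39, limma adjusted p = 0.00698), against 3.04% of all genes, while CDH1 (-0.048), KRT19 (-0.004) and EPCAM (0.095) did not. Ratios hold no level, so whether any of these markers was present cannot be read, and the part of other cell types in the CD70 and BCL2A1 values was not tested. In bulk RNA, fewer cells with a message and less of it per cell cannot be told apart.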

How the data were processed

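Per the series design text, ArrayMagic was the tool with which the authors turned the scanner output into log ratios, with variance-stabilizing normalization (VSN), and limma was their test. The log ratios were deposited as 1 column per array. No source used here gives their base, numerator, orientation, software versions or spot filters. VSN compresses the ratios of dim spots, and dim probes could not be filtered, since the table has no intensities. No further normalization was applied. Gene names are those of the platform annotation. All 95 member probes matched a RefSeq gene of GRCh38.p14 by gene ID, with 0 symbols changed. All probes, and the means of each gene's clones, were fitted in limma 3.58.1 (R 4.3.3) with an intercept (shared component) and the dye orientation (alternating component). This left 2 residual degrees of freedom, and empirical Bayes added 7.22 for probes and 5.89 for genes. Tests were two-sided, and p was adjusted by Benjamini-Hochberg over the 26629 probes or the 12483 genes, with 0.05 as the threshold. The ± values are standard deviations over arrays.

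The members, role groups and pathway list were chosen with earlier results of these data known. Named genes are members called in either component, CD70 and TNFRSF10A, up to 3 probes per role group with the largest moderated statistic in the shared component and 1 in the alternating one, with all their clones. Further members give the range of a role group. The fit was tested on simulated data. Alternatives were leaving out each array, no dye term, arrays centred on their median, arrays scaled to a common median absolute deviation, array weights, quantile normalization, no moderation, robust moderation (with statmod 1.5.0), thresholds of 0.01 and 0.1, and the clone with the largest statistic per gene. The plots were made in Python 3.11.15 with matplotlib 3.10.9. Of the probes with several symbols, 8 name a member gene and were left out.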

Additional observations from a re-analysis of the deposited data

How the results depend on the processing

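CD70 and BCL2A1 kept their sign in the shared component under all 13 alternatives, at -1.40 to -1.05 and -0.60 to -0.51, and both passed under each except the fit without moderation, where 0 probes of the whole array passed. In the alternating component the 7 called probes kept their sign under these alternatives and each lost its call in 5 to 7 of them. Leaving out 1 array gave 2 to 13 member genes and 1 to 8 pathway genes in the shared component (1.43% to 11.8% of all genes), and 0 to 8 member probes (0.424% to 7.04% of all probes), 0 to 15 member genes and 0 to 8 pathway genes (0.312% to 18.4% of all genes) in the alternating one. LTBR as a gene mean was not called without the dye term, without moderation, at 0.01, without array 2 or without array 4. Without moderation, on 2 residual degrees of freedom, 0 member probes, member genes and pathway genes passed in either component in limma (12, 7 and 6 at an unadjusted p under 0.05 in the shared, 15, 7 and 8 in the alternating component). Of the whole array 0 probes and 0 genes passed in the shared component of that fit. In its alternating component 0.015% of all probes and 0.00801% of all genes passed. Without the dye term 0 pathway genes passed in the shared component (5 at an unadjusted p under 0.05), and 0 member probes, member genes and pathway genes in the alternating one (18, 15 and 10). That fit called 1.25% of all genes in the shared component. In the alternating one it called 0.383% of all probes and 0.0801% of all genes. At a threshold of 0.01, 1 pathway gene passed in the shared component (1.3% of all genes). In the alternating one 0 of each kind passed there (0.0901% of all probes and 0.0561% of all genes). At 0.1, 4 member probes and 5 member genes passed in the shared component (adding CASP9 and LTBR among probes; 3.26% of all probes and 4.91% of all genes), and 16 member probes (11.8% of all probes), 8 member genes and 9 pathway genes (11.2% of all genes) in the alternating one. With the clone of the largest statistic in place of the gene mean, 13 member genes passed in the alternating component, against 14.3% of all genes. Of the 95 probes, 37 turned sign in the shared and 34 in the alternating component when 1 array was left out, 0 of them called and none above 0.0927 and 0.109 in size. Among them were CASP1 (-0.058 to 0.19), CASP2 (-0.036 to 0.062), BCL2L15 (-0.051 to 0.15), TNFRSF1A (-0.031 to 0.16), RIPK3 (-0.055 to 0.080) and TNFRSF10B (-0.19 to 0.0031) in the shared and BCL2A1 (-0.024 to 0.058) in the alternating component. The cause of these changes was not tested. Each array is a ratio of 2 cultures, so the comparison within an array is already paired. The labels give 1 series of replicate numbers, so no further pairing between arrays was possible. The table holds no intensities, so signal over background is unknown for every probe named.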
